A study of Mus musculus with 10 samples.

Results

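Pro-B cells of Pax5+/- mice, which carry 1 null allele of Pax5, were compared with wild-type Pax5+/+ pro-B cells to ask which genes respond when 1 of its copies is lost. All genes with at least 1 TPM, a length-scaled share of the transcripts of a library, in at least 1 of the 4 libraries of these genotypes were taken as members, 12799 of the 25579 genes in the tables, and 11812 of them reached this level in all 4 libraries. TPM values are scaled to the length of the gene and the size of the library, so that levels can be compared between genes. At the edge of this rule, A830035O19Rik (highest value 1.00044 TPM) and Cbarp (1.00267 TPM) lay just inside, and Stk39 (0.999769 TPM) and Plek2 (0.998934 TPM) just outside. The cells were bone marrow pro-B cells of the C57BL/6 strain, sorted ex vivo by flow cytometry, with 2 libraries per genotype. Ages and the number of mice behind a library are not given in the sources used here, and p-values therefore measure only the spread between libraries, which may be technical. Values of Pax5R31Q/- pro-B cells (1 allele for a Pax5 protein with a changed DNA-binding domain and 1 null allele) and of Pax5-/- cells are set beside them. The Pax5-/- cells came from Pax5(fl/fl) Vav-Cre mice, whose Cre recombinase is active in blood-forming cells, and their label calls them progenitor cells rather than pro-B cells.

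Pax5 is a transcription factor with a paired DNA-binding domain that commits lymphoid progenitors to the B cell lineage. It activates genes of the pre-B cell receptor and its signaling, such as Cd79a, and holds down genes of other lineages and of earlier progenitors, such as Flt3. Heterozygous loss of the gene is a frequent lesion in human B cell acute lymphoblastic leukemia.

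The depth on genes ranged from 29916566 to 33531168 reads in the 4 Pax5+/+ and Pax5+/- libraries. The 2 libraries of a genotype had a Spearman correlation across the members of 0.986 for Pax5+/+ and 0.993 for Pax5+/-, where genes are not independent replicates. All 10 pro-B cell markers were expressed in every library, led by Igll1 (3107 to 3970.5 TPM), Vpreb1 (2793 to 3479 TPM) and Cd79a (2710.0 to 4786 TPM). Their median log2 difference was -0.21 (-0.31 to -0.12 with 1 library left out). At an unadjusted limma p-value under 0.05, 3 were lower (background 3.15%) and 1 higher (background 2.91%). For 6 of the 10 both Pax5+/- libraries lay below both Pax5+/+ libraries (background 14.9%). Hba-a2 and Hbb-bs of red cells were listed at 0 in the 4 libraries, and Cd3e of T cells reached at most 0.203 TPM. Myeloid markers were present: S100a8 had 159 and 113 TPM in Pax5+/+ and 169 and 475 TPM in Pax5+/- libraries, and the 7 myeloid markers summed to 615 and 397 TPM against 661 and 1525 TPM. The second Pax5+/- library thus stood apart in S100a8, S100a9 (294 and 773 TPM) and Lyz2 (130.1 and 205 TPM), which carried the sum. The other 4 markers differed little between the Pax5+/- libraries, with 27.4 and 30.2 TPM for Mpo, 19.13 and 19.09 TPM for Elane, 17.54 and 17.48 TPM for Itgam and 3.57 and 4.63 TPM for Csf1r. Against Pax5+/+, 6 of the 7 markers had both Pax5+/- libraries above both Pax5+/+ libraries (background 21.1%), with a median log2 difference of 0.60, and 0.45 without the second Pax5+/- library, while Itgam was higher in Pax5+/+ (23.4 and 22.3 TPM). The second Pax5+/+ library stood apart in mitosis genes, whose summed level was 3609 TPM against 5290.3 TPM in the first Pax5+/+ library and 5026 and 5549 TPM in Pax5+/-. Calls, list counts and list medians were recomputed without each library, the list counts by a choice made after seeing the data. At an unadjusted p-value under 0.05, 3.15% of all genes were lower and 2.91% higher with all libraries. Without the first Pax5+/+ library these shares were 7.17% and 6.49%, without the second 2.17% and 2.59%, without the first Pax5+/- library 2.06% and 1.97%, and without the second 1.56% and 1.29%. List counts without a library are to be read against its shares.

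Pax5 itself, on chromosome 4 from 44524748 to 44710694 (GRCm38/mm10, minus strand), had 418 and 444 TPM in Pax5+/+ and 272 and 287 TPM in Pax5+/- cells. The genotypes did not overlap, and the Pax5+/- mean of 279 ± 10.3 TPM (SD, n = 2) was 64.9% of the Pax5+/+ mean of 431 ± 18.4 TPM (n = 2). On the log2(TPM + 1) scale this was a difference of -0.62 ± 0.11 (SE), with an adjusted p-value of 0.150 from limma and of 0.0821 from limma-voom on the recovered reads, so that the direction went with the label while the difference did not pass the test across genes. The gene had 306 and 293 TPM in Pax5R31Q/- and 1242 and 1409 TPM in Pax5-/- libraries. Values per gene do not show which allele or exon the reads came from, and reads of Pax5 cannot be told from those of Mir5120, Gm12462 and 5730488B01Rik, which overlap it, because the strand setting of the counting is not given.

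Across the transcriptome few genes passed the test between Pax5+/- and Pax5+/+ pro-B cells. With limma on log2(TPM + 1), in 1 fit over all 4 genotypes and the 13436 genes with at least 1 TPM in any of the 8 RNA-seq libraries, 3 genes were lower in Pax5+/- than in Pax5+/+ pro-B cells at an adjusted p-value under 0.05 (0.0223% of the genes tested) and 0 were higher (0%). All 3, Col5a3, Hdac11 and Enpep, also differed by over 3-fold and had a mean over 5 TPM in a genotype. At an unadjusted p-value under 0.05, 423 genes were lower (3.15%) and 391 higher (2.91%), of which 421 and 388 were members. The smallest adjusted p-value among higher genes was 0.0627, for Sema3g. Of the members, 94.9% lay within 1.5-fold of the Pax5+/+ level, 90 were over 2-fold lower and 83 over 2-fold higher, and the median log2 difference of all members was 0.03. Both Pax5+/- libraries lay below both Pax5+/+ libraries for 14.9% of the genes tested and above them for 21.1%. An exact two-sided permutation of 2 libraries a genotype has p = 0.333 as its smallest value, and the p-values given here lean on a variance estimate that limma pools over the genes. In sorted cells measured in bulk, fewer cells of a type and less RNA per cell cannot be told apart.

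**Figure D1:**
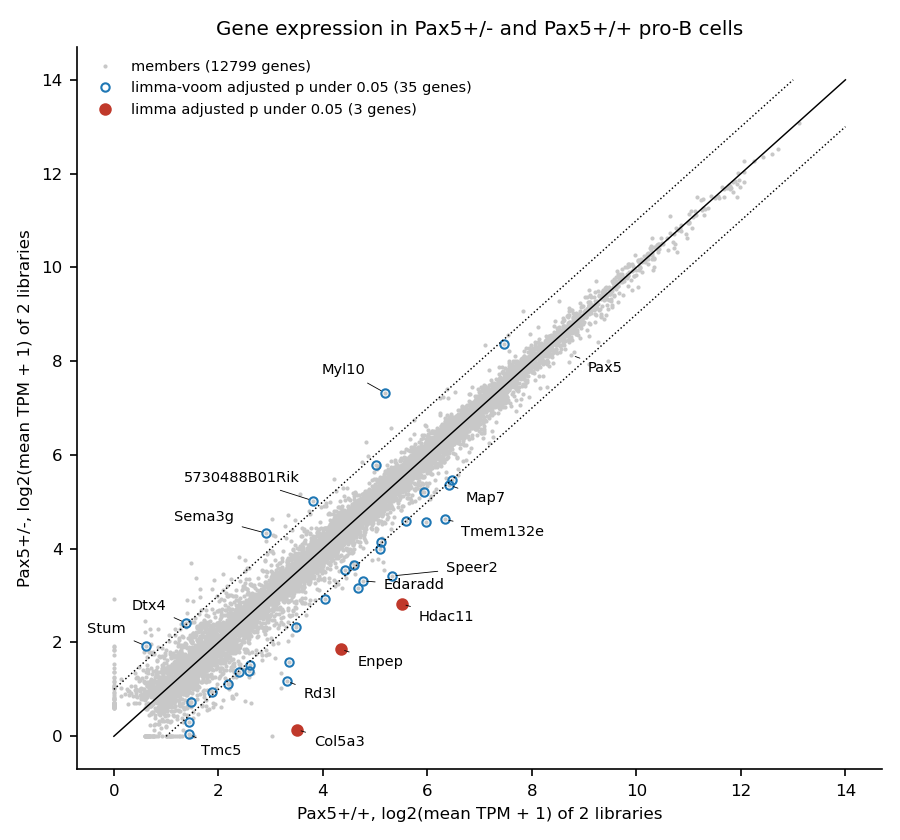
Mean expression of the 12799 members in Pax5+/+ (x axis) and Pax5+/- (y axis) pro-B cells, each as log2(mean TPM + 1) of 2 libraries; the solid line marks equal levels and the dotted lines a 2-fold difference on this scale. Red points are the 3 genes past the limma test and blue circles the 35 genes past limma-voom, and both sets hold more genes below than above the line.

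The 300-base promoters of the 3 genes that passed the test and of Edaradd, the next gene by p-value, are shown because a Pax5 peak lay at the start site of some and not of others. They run from 250 bases before to 50 bases after a start site in RefSeq (GRCm38.p6), 5′ to 3′ on the strand of the gene. For Hdac11, Edaradd and Col5a3 this site lies inside the gene, not at its outer end. Capitals mark each match to GCNTGAC on either strand, letters from the 3′ part of the Pax5 consensus.
Hdac11: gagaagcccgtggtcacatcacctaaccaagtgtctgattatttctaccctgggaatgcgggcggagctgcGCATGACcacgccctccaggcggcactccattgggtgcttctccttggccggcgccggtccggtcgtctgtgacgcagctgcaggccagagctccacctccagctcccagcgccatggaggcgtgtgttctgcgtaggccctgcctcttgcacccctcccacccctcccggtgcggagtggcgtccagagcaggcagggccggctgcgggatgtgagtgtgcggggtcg
Edaradd: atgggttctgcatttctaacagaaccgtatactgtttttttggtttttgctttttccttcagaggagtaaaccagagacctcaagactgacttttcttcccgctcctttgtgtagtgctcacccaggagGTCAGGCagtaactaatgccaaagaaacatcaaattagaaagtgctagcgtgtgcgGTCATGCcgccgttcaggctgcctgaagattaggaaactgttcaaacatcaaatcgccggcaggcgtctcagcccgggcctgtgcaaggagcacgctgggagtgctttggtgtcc
Enpep: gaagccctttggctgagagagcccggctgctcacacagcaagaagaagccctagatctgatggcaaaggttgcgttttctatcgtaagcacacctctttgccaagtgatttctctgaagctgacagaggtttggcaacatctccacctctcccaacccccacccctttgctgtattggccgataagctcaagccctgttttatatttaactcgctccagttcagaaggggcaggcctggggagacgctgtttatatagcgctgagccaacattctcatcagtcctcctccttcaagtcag
Col5a3: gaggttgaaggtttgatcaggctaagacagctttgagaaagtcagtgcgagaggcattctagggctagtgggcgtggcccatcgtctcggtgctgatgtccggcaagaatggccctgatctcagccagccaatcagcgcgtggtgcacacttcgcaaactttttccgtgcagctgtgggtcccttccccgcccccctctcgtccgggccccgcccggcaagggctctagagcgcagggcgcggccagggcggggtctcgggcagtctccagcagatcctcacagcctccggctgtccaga
The Hdac11 promoter (chr6:91156565-91156864, plus strand) held 1 match, which started at base 72. The Edaradd promoter (chr13:12520401-12520700, minus strand) held 2 matches, which started at bases 130 and 186. The Enpep promoter (chr3:129332700-129332999, minus strand) and the Col5a3 promoter (chr9:20815018-20815317, minus strand) held 0. Of all 32851 promoters of this length in the table, 10.7% held the motif. In all, 5 spellings were searched on both strands, and they overlap one another: GCGTGAC was in 2.09% of all promoters and in none of these 4, GCATGAC was in 2.17% and in those of Hdac11 and Edaradd, GCGTGNC was in 12.8% and in that of Col5a3, and CGTGAC was in 8.22% and in none of the 4.

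Peaks of Pax5 from a ChIP-seq library of short-term cultured Rag2-/- pro-B cells, which carry both Pax5 alleles, were set against these promoters. The peak on chromosome 6 from 91156565 to 91157110 covered all 300 bases of the Hdac11 promoter. The peak on chromosome 13 from 12520204 to 12520617 covered 217 bases of the Edaradd promoter. Counted from the outermost start of the gene, the nearest peak lay 1515 bp from Enpep and 53216 bp from Col5a3. Binding in Pax5+/- cells was not analysed here.

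Hdac11 encodes a histone deacetylase, the sole class IV member of that family. It is on chromosome 6 from 91156670 to 91174692. The gene had 40.6 and 48.7 TPM in Pax5+/+ and 5.38 and 6.74 TPM in Pax5+/- pro-B cells. Both Pax5+/- libraries lay far below both Pax5+/+ libraries, and the mean fell from 44.7 ± 5.71 to 6.06 ± 0.968 TPM (SD, n = 2 each), which is 13.6% of the wild-type level. The log2 difference was -2.69 ± 0.18 (SE; limma adjusted p = 0.00464). Without any 1 of the 4 libraries Hdac11 no longer passed (limma adjusted p from 0.0674 to 0.149), while the log2 difference stayed between -2.83 and -2.55. In the other genotypes, which were compared with the same Pax5+/+ libraries, Hdac11 had 2.53 and 2.56 TPM in Pax5R31Q/- and 13.7 and 11.3 TPM in Pax5-/- libraries. The Pax5-/- libraries thus lay above those of Pax5+/-. Of 17 histone deacetylase and sirtuin genes, all members, Hdac11 was the 1 gene that passed the test or had an unadjusted p-value under 0.05, and the median log2 difference of the list was -0.03 (-0.10 to 0.03 with 1 library left out). Without the first Pax5+/+ library 4 of the 17 were lower at an unadjusted p-value under 0.05 (background 7.17%), and without the second 1 was higher (2.59%).

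Enpep, on chromosome 3 from 129269177 to 129332749, encodes glutamyl aminopeptidase, known on early B cells as the BP-1 antigen. Its level was 22.6 and 15.8 TPM in Pax5+/+ and 2.36 and 2.88 TPM in Pax5+/- cells, so that the genotypes did not overlap. The Pax5+/- mean of 2.62 ± 0.362 TPM was 13.6% of the Pax5+/+ mean of 19.2 ± 4.82 TPM (SD, n = 2 each). Enpep fell by 2.47 ± 0.21 on the log2 scale (SE; limma adjusted p = 0.0174). Like Hdac11, Enpep did not pass without any 1 of the 4 libraries (limma adjusted p from 0.0674 to 0.246), with log2 differences from -2.71 to -2.22. It was close to 0 in the more severe genotypes, with at most 0.0682 TPM in Pax5R31Q/- and at most 0.0237 TPM in Pax5-/- libraries. Among the other 5 surface peptidases and ectoenzymes among the members, Bst1, a cyclic ADP-ribose enzyme and stromal antigen, had 181 and 174 TPM against 119 and 139.7 TPM (limma adjusted p = 0.367). Dpp4, the CD26 peptidase, had 110.3 and 109.8 TPM against 150.2 and 165 TPM (limma adjusted p = 0.704). Neither passed the test, and the median log2 difference of the 6 was 0.03.

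Col5a3, on chromosome 9 from 20770050 to 20815117, encodes the alpha 3 chain of type V collagen. The gene had 10.4 and 10.3 TPM in Pax5+/+ and 0.121 and 0.0845 TPM in Pax5+/- pro-B cells. These rested on 882 and 785 reads against 10 and 7 reads, and the Pax5+/- mean was 0.990% of the Pax5+/+ mean. Col5a3 fell by 3.37 ± 0.16 on the log2(TPM + 1) scale (SE; limma adjusted p = 0.000762), with a log2 difference of -6.62 in limma-voom, which adds less to low values. It stood at or below 0.0470 TPM in the Pax5R31Q/- and Pax5-/- libraries, so that the level in Pax5+/- was already near that of the other mutants. Col5a3 passed without each of the 4 libraries (limma adjusted p from 0.0219 to 0.0285), but not in a fit of Pax5+/+ and Pax5+/- libraries alone (limma adjusted p = 0.0850). Of 15 collagen genes, 5 were members, and their median log2 difference of -1.91 describes the 3 that were low. Col27a1, the most expressed of them, had 34.7 and 51.1 TPM against 36.4 and 37.8 TPM, and Col11a2 had 2.54 and 2.95 TPM against 3.25 and 2.88 TPM, with overlapping genotypes for both. Col1a1 had 9.15 and 7.28 TPM against 1.14 and 0.933 TPM (limma adjusted p = 0.434), and Col1a2 had 5.56 and 4.84 TPM against 0.635 and 0.650 TPM (limma adjusted p = 0.355). Both type I collagen chains, made in quantity by stromal and bone cells, were thus low in both Pax5+/- libraries without passing the test, although Col1a2 passed in a fit without the Pax5-/- libraries, and Col1a1 had 5.55 and 0.573 TPM in the Pax5-/- libraries, a wide spread within 1 genotype. The 4 stromal markers summed to 10.1 and 8.84 TPM in Pax5+/+ and to 1.80 and 1.63 TPM in Pax5+/- libraries. Col1a1, given above, made up most of this sum in each library. Among the others Lepr was at most 0.0445 TPM and Col3a1 at most 0.310 TPM, and Cxcl12 ranged from 0.514 to 1.32 TPM. The part of stromal RNA in the Col5a3 result was not tested.

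The other 7 of the 10 lower genes with the smallest p-values and a mean over 5 TPM did not pass the adjustment. Edaradd, the adaptor of the EDAR receptor of the tumor necrosis factor receptor family, had 25.98 and 26.24 TPM in Pax5+/+ and 8.54 and 9.35 TPM in Pax5+/- pro-B cells (log2 difference -1.45 ± 0.15, limma adjusted p = 0.0541). The 2 genotypes were widely apart, and the level was lower still in the other mutants, at 1.48 and 1.52 TPM in Pax5R31Q/- and 0.381 and 0.489 TPM in Pax5-/- libraries. Rd3l, a homolog of a retinal degeneration gene, had 6.89 and 10.9 TPM against 1.45 and 1.07 TPM (limma adjusted p = 0.0541). Speer2, of a rodent spermatogenesis-associated gene family with near-identical copies whose reads may be shared, had 31.2 and 46.8 TPM against 9.95 and 9.44 TPM (limma adjusted p = 0.0541). Both were listed at 0 in Pax5-/- libraries, and Speer2 had 9.95 and 10.2 TPM in Pax5R31Q/- libraries, close to its level in Pax5+/-.

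Map7, which encodes a microtubule-associated protein, had 80.2 and 89.1 TPM in Pax5+/+ against 41.2 and 38.6 TPM in Pax5+/- pro-B cells, 47.1% of the wild-type mean (limma adjusted p = 0.0692). Crhbp, for the binding protein of corticotropin-releasing hormone, had 7.10 and 11.5 TPM against 1.80 and 2.19 TPM (limma adjusted p = 0.0692). Mmrn1, for the secreted glycoprotein multimerin, had 51.5 and 72.8 TPM against 23.4 and 21.7 TPM (limma adjusted p = 0.0926). In each of these the genotypes were apart by more than the spread between libraries of either. Fxyd6, a regulator of the sodium pump, had 92.2 and 82.6 TPM against 38.2 and 48.0 TPM (limma adjusted p = 0.0960). Its Pax5R31Q/- libraries, at 65.1 and 63.1 TPM, lay above those of Pax5+/-.

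**Figure D2:**
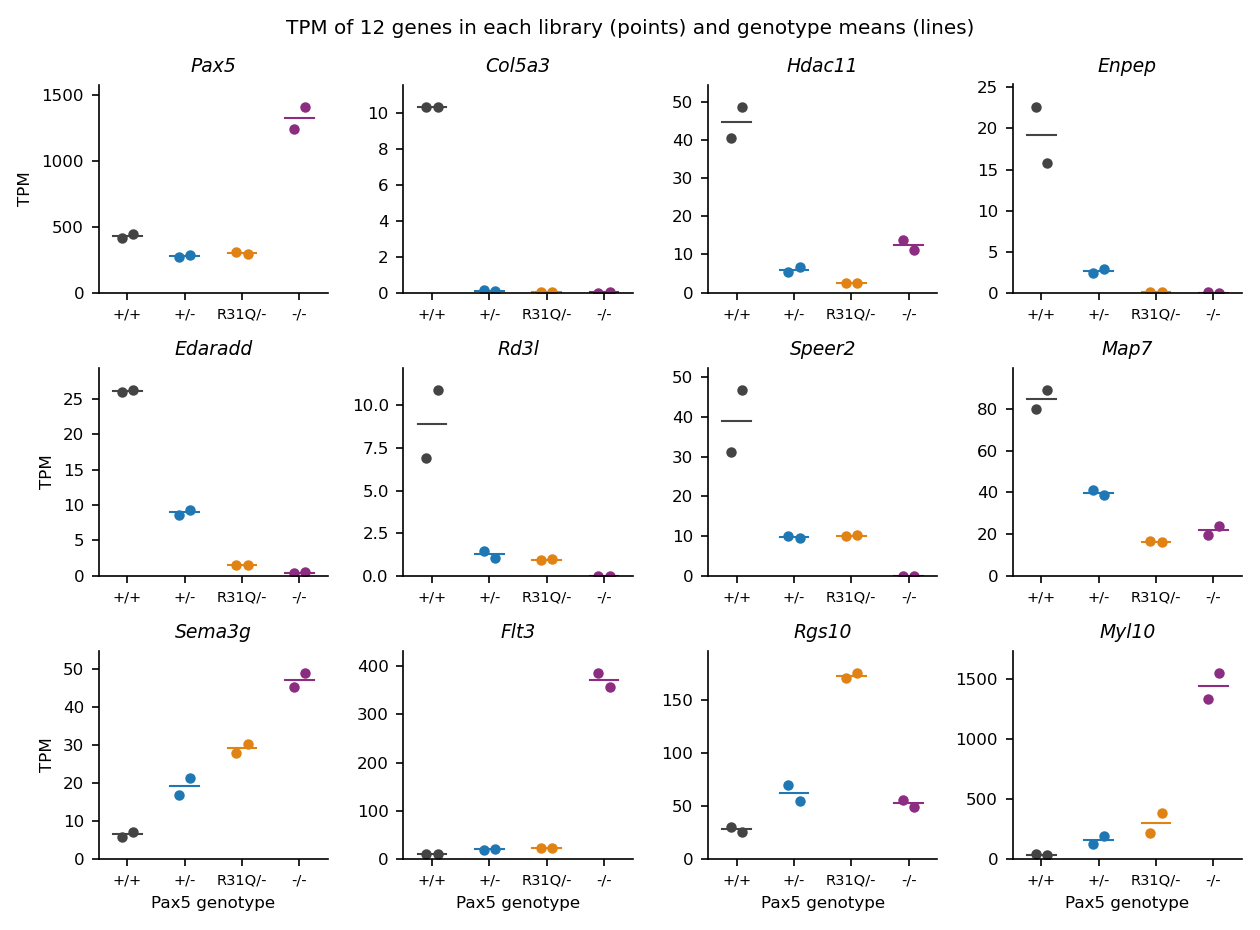
TPM (y axis, from 0) of 12 genes in each of the 8 libraries by Pax5 genotype (x axis); points are libraries and lines the means of 2. Col5a3, Hdac11 and Enpep drop steeply from Pax5+/+ to Pax5+/-, Edaradd declines stepwise over the 4 genotypes, and Sema3g increases stepwise, from a mean of 6.48 to 47.0 TPM.

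None of the higher genes passed the adjustment, but the 10 with the smallest p-values each had both Pax5+/- libraries above both Pax5+/+ libraries. Sema3g, a secreted semaphorin, had 5.89 and 7.08 TPM in Pax5+/+ and 16.9 and 21.5 TPM in Pax5+/- pro-B cells (log2 difference 1.42 ± 0.16, limma adjusted p = 0.0627). Flt3, the receptor tyrosine kinase of early lymphoid progenitors that Pax5 is known to repress, had 9.79 and 9.54 TPM against 18.8 and 21.6 TPM (limma adjusted p = 0.0692). The Pax5+/- mean of Flt3 was 209% of wild type, while the gene reached 385 and 356 TPM in the Pax5-/- libraries. Its start site lay under the Pax5 peak on chromosome 5 from 147400229 to 147400503.

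Myl10, a myosin regulatory light chain gene, had the highest fold of the 10, with 40.3 and 30.2 TPM against 129 and 190.4 TPM (log2 difference 2.14 ± 0.30, limma adjusted p = 0.0904). Its level was 217 and 389 TPM in Pax5R31Q/- and 1334 and 1552 TPM in Pax5-/- libraries. Rgs10, which speeds GTP hydrolysis by G proteins, had 29.9 and 26.1 TPM against 69.6 and 55.1 TPM (limma adjusted p = 0.0692). Unlike Myl10 it was highest in Pax5R31Q/-, at 171 and 176 TPM. Oaf had 19.6 and 19.97 TPM against 40.0 and 36.1 TPM (limma adjusted p = 0.0692).

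Lck, the Src-family kinase of T cell receptor signaling, had 60.4 and 63.4 TPM in Pax5+/+ and 96.1 and 97.4 TPM in Pax5+/- pro-B cells (limma adjusted p = 0.0969). Ccnd2, for the cell cycle regulator cyclin D2, had 81.3 and 85.1 TPM against 134 and 159 TPM (limma adjusted p = 0.0969). Slpi, a secreted inhibitor of leukocyte proteases, had 4.84 and 4.87 TPM against 10.2 and 12.04 TPM (limma adjusted p = 0.104). The genotypes did not overlap for any of the 3, whose Pax5+/- means were 156%, 176% and 229% of wild type. Nlrc5, the transactivator of MHC class I genes, had 32.9 and 29.9 TPM against 50.5 and 58.0 TPM (limma adjusted p = 0.104). The remaining gene, the long noncoding RNA gene 5730488B01Rik, lies within Pax5 on the other strand, on chromosome 4 from 44702800 to 44705110. It had 11.0 and 14.9 TPM in Pax5+/+ and 32.5 and 30.6 TPM in Pax5+/- libraries (limma adjusted p = 0.0692). Its level was about the same in all 3 mutant genotypes, 28.3 and 30.5 TPM in Pax5R31Q/- and 30.2 and 29.0 TPM in Pax5-/-, although Pax5 itself differed several-fold between them.

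Limma-voom on the recovered reads called more genes, 28 lower (0.209% of 13370 tested) and 7 higher (0.0524%), against 501 (3.75%) and 388 (2.9%) at an unadjusted p-value under 0.05. All 35 had the same direction in limma on TPM, and the 3 genes that passed there were among them. Genes named here were chosen after their values were seen. Tmc5, a transmembrane channel-like gene, had 1.80 and 1.61 TPM in Pax5+/+ and 0.0342 and 0.0343 TPM in Pax5+/- libraries (limma-voom adjusted p = 0.0104). Its neighbor and relative Tmc7 had 4.88 and 5.24 TPM against 1.77 and 2.00 TPM (limma-voom adjusted p = 0.0443). Unc79, for a subunit of a sodium leak channel, had 1.83 and 1.57 TPM against 0.274 and 0.200 TPM (limma-voom adjusted p = 0.0127). Tmc5 and Unc79 lay below a mean of 5 TPM, and Tmc7 was just above it in Pax5+/+ cells.

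Higher expressed genes were among the limma-voom calls too. Tmem132e had 68.2 and 90.8 TPM in Pax5+/+ against 28.1 and 19.3 TPM in Pax5+/- pro-B cells (limma-voom adjusted p = 0.0443). Lgr5, a receptor for R-spondins that marks stem cells in other tissues, had 48.0 and 46.1 TPM against 21.1 and 25.3 TPM (limma-voom adjusted p = 0.0491). Plpp3, a lipid phosphate phosphatase gene, had 15.02 and 15.9 TPM against 6.13 and 7.09 TPM (limma-voom adjusted p = 0.0257). In each, both Pax5+/- libraries lay well below both wild-type libraries. Stum had 0.581 and 0.467 TPM against 2.85 and 2.77 TPM (limma-voom adjusted p = 0.0125), and it reached 187 and 228 TPM in Pax5-/- libraries.

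The paper names its own genes for this comparison, a list that was chosen on these same libraries and so is no independent evidence of direction. It called them with DESeq2 on read counts, another test and scale (adjusted p-value under 0.05, over 3-fold, over 5 TPM). The limma test called 3 of the 15, limma-voom called 9, and all 15 had an unadjusted p-value under 0.05 in limma, 10 lower and 5 higher. Besides the genes above, Phyhip had 4.15 and 5.23 TPM in Pax5+/+ and 0.475 and 0.899 TPM in Pax5+/- libraries (limma adjusted p = 0.0696). Camk1g, a calmodulin-dependent kinase gene, had 23.2 and 26.1 TPM against 8.14 and 7.76 TPM (limma adjusted p = 0.108), and 0 of the other 8 expressed calcium and calmodulin kinase genes had an unadjusted p-value under 0.05. Itgb4, for an integrin subunit of epithelial adhesions, had 4.51 and 5.46 TPM against 1.59 and 1.64 TPM (limma adjusted p = 0.0969). The genotypes were apart for all 3, and Dnase1l3, for a secreted DNase, likewise had 7.38 and 10.9 TPM against 3.62 and 2.55 TPM (limma adjusted p = 0.137).

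Higher genes of that list varied more between the Pax5+/- libraries. Ly6a, the Sca-1 antigen of progenitors, had 11.6 and 9.97 TPM in Pax5+/+ but 20.3 and 49.3 TPM in the Pax5+/- libraries (limma adjusted p = 0.323). Iigp1, an interferon-inducible GTPase gene, had 1.76 and 1.55 TPM against 2.69 and 7.66 TPM (limma adjusted p = 0.653). In both the second Pax5+/- library, which also had the highest myeloid sum, was far above the first, and without it the log2 difference dropped from 1.48 to 0.86 for Ly6a and from 1.09 to 0.48 for Iigp1. The part of the myeloid RNA was not tested. Clgn, a chaperone gene, had 3.58 and 2.92 TPM against 8.24 and 11.9 TPM (limma adjusted p = 0.174). Dgkeos, annotated on the strand opposite Dgke, had 6.63 and 7.64 TPM against 19.7 and 28.1 TPM (limma adjusted p = 0.299).

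Target genes that the paper shows for the R31Q allele were examined in the heterozygous cells. Of 12 genes 0 passed the limma test in Pax5+/-, while 7, Edaradd among them, were lower and 2 higher at an unadjusted p-value under 0.05. The paper chose these genes on Pax5R31Q/- against the same Pax5+/+ libraries, so the shares over all genes (3.15% and 2.91%) are no reference for them, and the counts are a description. Pde9a, a cyclic GMP phosphodiesterase gene, had 25.97 and 43.5 TPM in Pax5+/+, 15.2 and 9.22 TPM in Pax5+/-, and at most 0.0696 TPM in Pax5R31Q/- libraries (limma adjusted p = 0.229 for Pax5+/-). Polm, for DNA polymerase mu of V(D)J end joining, had 34.8 and 31.1 TPM against 17.7 and 12.3 TPM (limma adjusted p = 0.174, limma-voom adjusted p = 0.0491). Polm stood at 1.87 and 2.01 TPM in Pax5R31Q/- libraries. Parvb, an integrin-linked adaptor gene, had a mean of 36.1 ± 6.67 TPM in Pax5+/- against 68.6 ± 12.8 TPM in Pax5+/+ (SD, n = 2 each; limma adjusted p = 0.212). Uchl1, a deubiquitinase gene, had a mean of 90.2 ± 12.7 against 149.9 ± 31.5 TPM (limma adjusted p = 0.332). Klf2, a transcription factor gene of quiescent lymphocytes, had a mean of 34.0 ± 8.31 against 65.8 ± 5.57 TPM (limma adjusted p = 0.568). For these 3 both Pax5+/- libraries lay below both Pax5+/+ libraries, at 52.7%, 60.2% and 51.6% of wild type. Pik3ap1, for the PI3K adaptor BCAP, had 471 and 497 TPM against 392.5 and 324 TPM (limma adjusted p = 0.660).

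Nedd9 and Sh3bp5 stayed close to wild type in the heterozygous cells. Nedd9, a scaffold of integrin and antigen receptor signaling, had 225 and 185 TPM in Pax5+/+ and 186 and 189 TPM in Pax5+/- libraries, which lay inside the wild-type range, and 45.4 and 44.9 TPM in Pax5R31Q/- libraries. Sh3bp5, for a binding partner of the kinase BTK, had 127 and 148 TPM against 145 and 135 TPM, and 46.4 and 43.5 TPM in Pax5R31Q/-. Among the repressed genes, Rapgef3, for a cyclic AMP-activated exchange factor, overlapped as well, with 5.21 and 6.58 TPM against 6.92 and 5.20 TPM. Dtx4, a Deltex ubiquitin ligase gene of the Notch pathway, had 1.58 and 1.59 TPM against 4.21 and 4.49 TPM (limma adjusted p = 0.0926, limma-voom adjusted p = 0.0257). It stood at 11.6 TPM in both Pax5R31Q/- libraries and at 67.9 and 79.0 TPM in Pax5-/- libraries. Gimap3, a GTPase gene of lymphocytes, had 9.98 and 20.7 TPM against 24.2 and 34.2 TPM (limma adjusted p = 0.690).

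A list of genes taken as activated by Pax5 held 6 that the paper names from these experiments, Edaradd, Pik3ap1, Nedd9, Sh3bp5, Klf2 and Siglecg, and is no independent evidence of direction for them. Of 21 members of that list 0 passed the adjusted limma test, 5 were lower at an unadjusted p-value under 0.05 (background 3.15%) and 0 higher, and the median log2 difference was -0.31 against 0.03 for all members. Without the second Pax5+/- library 1 of the 21 was lower at that threshold (background 1.56%), and the median was -0.28. Over the 15 genes that the paper does not name, a split made after seeing the data, 1 was lower and 0 higher, with a median of -0.29. Siglecg, an inhibitory sialic acid receptor gene, had 215 and 275 TPM in Pax5+/+ against 156 and 141 TPM in Pax5+/- libraries (limma adjusted p = 0.477). The genotypes did not overlap, and the Pax5+/- mean of Siglecg was 60.6% of wild type.

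Genes of other lineages and progenitors taken as repressed by Pax5, of which Dtx4, Gimap3, Rapgef3 and Ly6a were named by the paper from these libraries, had a median log2 difference of 0.26 over 19 members, with 6 higher at an unadjusted p-value under 0.05 (background 2.91%), 0 lower and 0 past the adjusted limma test. Leaving out each library gave 5 to 7 higher, and without the first Pax5+/+ library 2 were lower (background 7.17%) and the median was 0.15. Over the 15 genes that the paper does not name, 3 were higher and 0 lower, with a median of 0.11. Apart from Flt3, Dtx4, Gimap3 and Ly6a these were Cd93, a progenitor surface receptor gene, with 278 and 272 TPM in Pax5+/+ against 414 and 432 TPM in Pax5+/- (limma adjusted p = 0.355), and the chemokine gene Ccl3, with 0.910 and 0.612 TPM against 2.33 and 1.77 TPM (limma adjusted p = 0.453). The list also holds the myeloid marker Csf1r, and the myeloid markers had a median of 0.60. The part of the myeloid RNA in this list was not tested. The 15 progenitor cytokine receptor genes as a group had a median of -0.01 (-0.14 to 0.07 with 1 library left out), with 1 lower and 1 higher at an unadjusted p-value under 0.05, and 5 lower and 2 higher without the first Pax5+/+ library (background 7.17% and 6.49%). Kit, the stem cell factor receptor, went against Flt3 with 62.8 and 54.7 TPM against 35.9 and 46.1 TPM (limma adjusted p = 0.531).

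The components of the pre-B cell receptor and its co-receptors had a median log2 difference of -0.27 over 14 members, and 5 of them were lower at an unadjusted p-value under 0.05 (background 3.15%, as for each lower count of a list below, and 2.91% for higher counts), Siglecg, Fcgr2b, Cd22 and Cd79b among them, with 0 past the adjusted limma test. The count lower was 0 without the second Pax5+/- library (background 1.56%), 2 without the second Pax5+/+ library (2.17%), 3 without the first Pax5+/- library (2.06%) and 4 without the first Pax5+/+ library (7.17%), with medians from -0.33 to -0.17 over the 4 libraries left out in turn. Cd79b, a signaling chain of the receptor, had 1716 and 1660.1 TPM in Pax5+/+ and 1393 and 1325 TPM in Pax5+/- pro-B cells (limma adjusted p = 0.665). Cd22, an inhibitory co-receptor, had 53.9 and 59.2 TPM against 45.0 and 40.4 TPM (limma adjusted p = 0.755). The surrogate light chain genes Vpreb1 and Igll1 had 3097 and 3479 against 2975 and 2793 TPM and 3417 and 3970.5 against 3149.7 and 3107 TPM. The 21 genes of signal transduction downstream had a median of 0.03 (-0.03 to 0.09 with 1 library left out), with 2 lower and 2 higher at an unadjusted p-value under 0.05. With 1 library left out these counts ranged from 0 to 3 each, with 0 lower without the second Pax5+/- library and 0 higher without the second Pax5+/+ library. The kinase gene Lyn had 124 and 118 TPM against 95.5 and 90.7 TPM (limma adjusted p = 0.546), and the phospholipase gene Plcg2 had 278 and 273 TPM against 362 and 317 TPM (limma adjusted p = 0.665).

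Among the transcription factors of the B lineage, over 25 members the median was -0.08, and 2, Pax5 and Klf2, were lower at an unadjusted p-value under 0.05 (median -0.14 to -0.02 and 1 to 3 lower with 1 library left out). Ebf1, the factor upstream of Pax5, had 454 and 502 TPM in Pax5+/+ and 448 and 426 TPM in Pax5+/- libraries (log2 difference -0.13 ± 0.12). Ikzf1, the gene of Ikaros, had 331 and 299.6 TPM against 300.1 and 307 TPM. The libraries overlapped between genotypes for Ikzf1, and for Ebf1 the highest Pax5+/- library lay just below the lowest Pax5+/+ library. Of 14 genes of V(D)J recombination and end joining, with a median of 0.07, Polm and Rag2 were lower and Dntt was higher at an unadjusted p-value under 0.05. The median of this list was 0.23 without the first and -0.09 without the second Pax5+/+ library, with 1 to 2 lower and 0 to 1 higher over the 4 libraries left out in turn. Rag2, a recombinase subunit gene, had 128 and 132 TPM against 86.3 and 99.9 TPM (limma adjusted p = 0.799), and Dntt, for terminal transferase, 2277 and 2318 TPM against 3006 and 2782 TPM (limma adjusted p = 0.744).

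Interferon response genes lay high as a group in Pax5+/- cells: 11 of 34 were higher at an unadjusted p-value under 0.05 (background 2.91%) and 0 lower, the median log2 difference was 0.26, and 0 passed the adjusted limma test. In 19 of the 34 both Pax5+/- libraries lay above both Pax5+/+ libraries (background 21.1%). Their summed level was 1891 and 1821 TPM in Pax5+/+ and 2233 and 2382 TPM in Pax5+/- libraries. The antigen-processing genes Psmb9, an immunoproteasome subunit, and Tap1, a peptide transporter, were among them, with 357 and 334 TPM against 431 and 494 TPM for Psmb9 (limma adjusted p = 0.461) and 188 and 189 TPM against 232 and 277 TPM for Tap1 (limma adjusted p = 0.474). Irf7, an interferon regulatory factor gene, had 34.6 and 42.2 TPM against 65.6 and 49.6 TPM (limma adjusted p = 0.546). Without the second Pax5+/- library, which had the highest myeloid sum, the median of the list was 0.26 and 3 of the 34 genes were higher at an unadjusted p-value under 0.05 (background 1.29%), and 7 were without the second Pax5+/+ library (background 2.59%). The part of the myeloid RNA in this list was not tested, and 1 of the 11, Iigp1, is a gene the paper lists from these libraries.

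MHC class II genes had a median log2 difference of -0.27 over 10 members, with 1, H2-Ob, lower at an unadjusted p-value under 0.05. With 1 library left out the median ranged from -0.36 without the first to -0.16 without the second Pax5+/+ library, with 2 lower without the first Pax5+/+ library (background 7.17%) and 0 without the second Pax5+/- library (1.56%). H2-Ob, for a chain of the peptide-loading modulator H2-O, had 139 and 177 TPM in Pax5+/+ against 108 and 98.3 TPM in Pax5+/- (limma adjusted p = 0.461). All 7 genes of a Ly6 and uPAR family list had a log2 difference above 0, with a median of 0.56, and 3 had an unadjusted p-value under 0.05 (background 2.91%). Without the second Pax5+/- library, which had the highest myeloid sum, the median was 0.17. Ly6a of this list is a gene the paper lists from these libraries, and the part of the myeloid RNA was not tested. Ly6d, a marker of B-lineage-biased lymphoid progenitors, had 333 and 403 TPM against 702 and 534 TPM (limma adjusted p = 0.268). Of 13 integrins, with a median of 0.16, Itgb4 was lower and Itgal and Itga5 higher at an unadjusted p-value under 0.05. The count higher was 0 without the first Pax5+/+ library or either Pax5+/- library, and the median was 0.01 without the second Pax5+/+ library and 0.08 without the second Pax5+/- library. The 17 Notch pathway genes had a median of 0.02 (-0.05 to 0.13 with 1 library left out), and Heyl, a Notch target gene, had 68.7 and 70.2 TPM against 52.8 and 33.3 TPM (limma adjusted p = 0.665). As a reference, 26 cytosolic ribosomal protein genes had a median of 0.00, a range from -0.11 to 0.17 and 0 at an unadjusted p-value under 0.05.

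**Figure D3:**
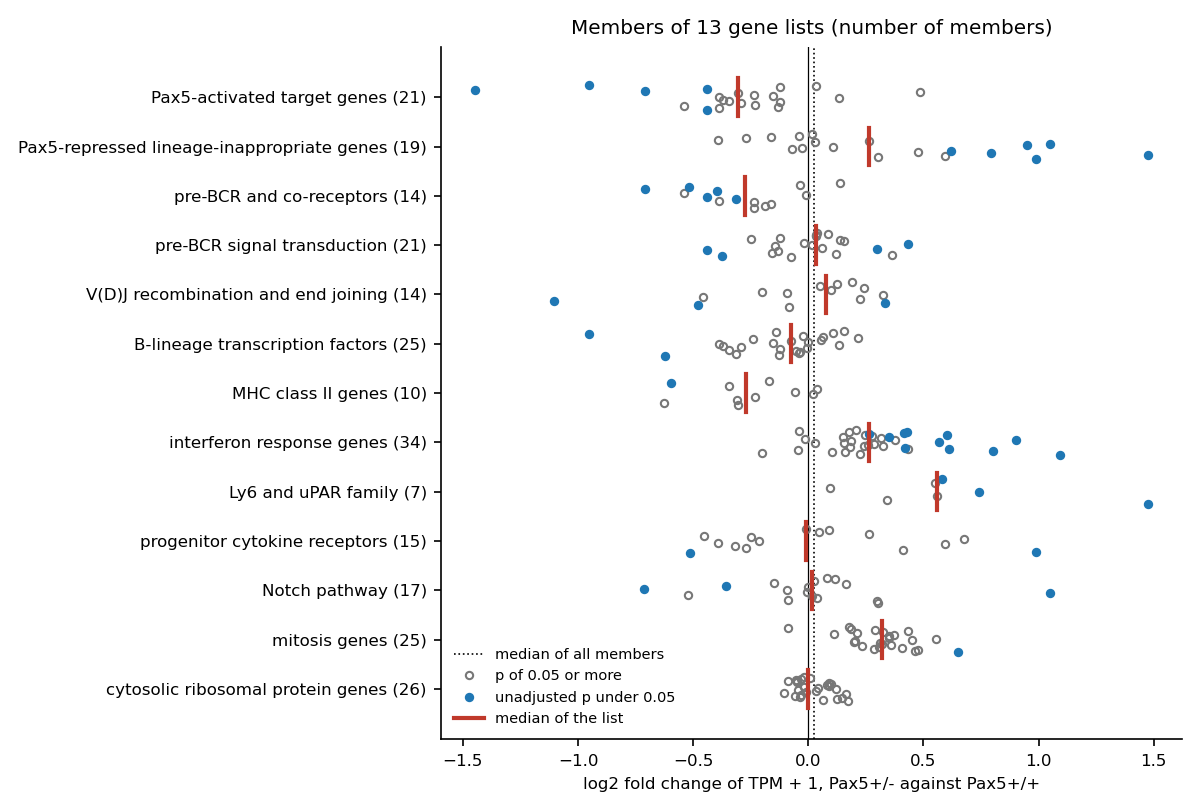
Log2 fold change of TPM + 1 between Pax5+/- and Pax5+/+ (x axis) of each member of 13 gene lists (y axis, number of members in brackets); filled points have an unadjusted p-value under 0.05, red bars are list medians and the dotted line is the median of all members. Pax5-activated genes and pre-BCR components lie mostly left of 0, repressed genes and interferon response genes mostly right, and ribosomal protein genes close to 0.

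Pax5 peaks at start sites were then counted over the members. A peak of the Rag2-/- ChIP-seq library lay within 1 kb of an annotated start site for 8819 of 12512 members (70.5%; exact 95% interval 69.7 to 71.3%, which covers counting error only). Of the members lower in Pax5+/- at an unadjusted p-value under 0.05 it was 239 of 414 (57.7%, 52.8 to 62.5%), and of those higher 185 of 365 (50.7%, 45.4 to 55.9%). The members that differed had lower levels, with a median of 12.3 TPM for the lower and 12.1 TPM for the higher genes in Pax5+/+ against 24.4 TPM for all members, and the share with a peak climbed with the level. Among members with a mean of 20 to 100 TPM, 82.4% had a peak, against 76.3% of the lower genes (66.6 to 84.3%) and 66.7% of the higher genes (57.7 to 74.8%). The higher genes had a smaller share than all members in each of the 5 level classes, while the lower genes had a smaller share from 1 to 100 TPM but not over 100 TPM (89.8% against 85.6%) or below 1 TPM (25.6% against 23.8%). Of the 3 genes past the limma test, 1 (Hdac11) had a peak within 1 kb and 2 (with Enpep) within 2.5 kb.

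**Figure D4:**
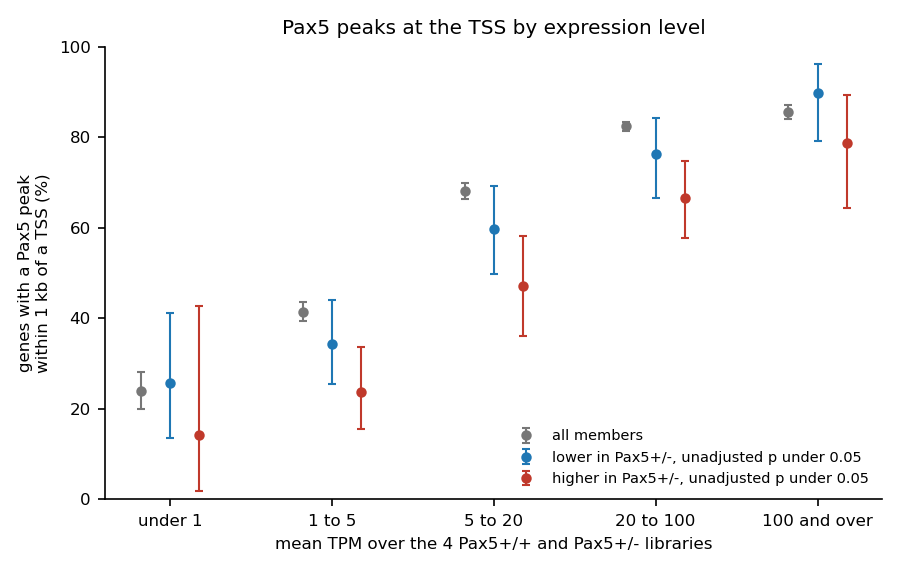
Share of genes with a Pax5 peak within 1 kb of a start site (y axis, percent) by mean TPM over the 4 Pax5+/+ and Pax5+/- libraries (x axis, 5 classes); points are shares, and bars are exact 95% binomial intervals. The share climbs with expression, and in every class genes higher in Pax5+/- at an unadjusted p-value under 0.05 have the lowest share.

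Genes next to Pax5 on chromosome 4 were examined because a targeted allele is passed on together with its neighbors. Of 94 members within 5 Mb of Pax5, 89 were within 1.5-fold of the wild-type level, the median log2 difference was 0.04 and 0 passed the adjusted limma test. At an unadjusted p-value under 0.05, 2 were lower (background 3.15%) and 10 higher (background 2.91%). Fbxo10, an F-box gene of ubiquitin ligases, had 3.54 and 3.58 TPM in Pax5+/+ and 6.58 and 7.21 TPM in Pax5+/- libraries (limma adjusted p = 0.262). Polr1e, a subunit gene of RNA polymerase I, had 13.5 and 9.41 TPM against 16.8 and 16.2 TPM (limma adjusted p = 0.665). With 5730488B01Rik and the microRNA gene Mir5106, these were the higher genes nearest to Pax5.

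**Figure D5:**
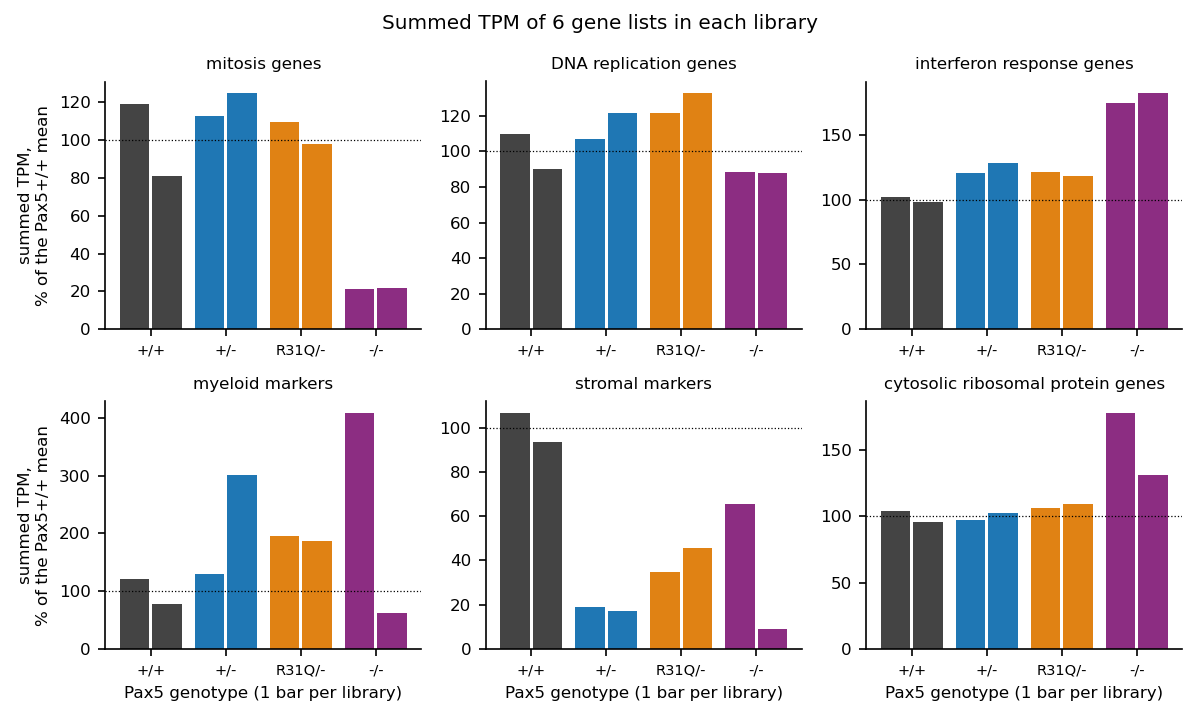
Summed TPM of 6 gene lists in each of the 8 libraries, as percent of the Pax5+/+ mean (y axis, from 0), by Pax5 genotype (x axis, 1 bar per library); the dotted line is 100%. Interferon response genes are above both Pax5+/+ libraries in both Pax5+/- libraries, and stromal markers, a sum mostly of Col1a1, are below them. Myeloid markers reach 301% in the second Pax5+/- library.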

How the data were processed

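RNA was sequenced from 2 libraries each of Pax5+/+, Pax5+/-, Pax5R31Q/- and Pax5-/- cells. The authors selected poly(A) RNA, aligned reads with STAR 2.4.2 and counted them on RefSeq genes, and they deposited TPM values per gene for each library. Counting by strand is not stated. The peak list was called by the authors with MACS on a Rag2-/- pro-B cell library, and its deposited score column is 0 throughout and was not used. Some genes of these lists are not reported here. The members and gene lists were chosen with earlier results of these data known.

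log2(TPM + 1) of the 13436 genes with at least 1 TPM in any library was fitted with limma 3.58.1 (empirical Bayes with a trend, R 4.3.3) over all 4 genotypes, and p-values were adjusted by Benjamini-Hochberg over all genes tested. Whole reads were recovered from the TPM values and tested with limma-voom as an alternative. They lay within 1e-06 of a read, or 1e-08 per read where larger, for all 18206 genes above 0 in at least 2 libraries. The smallest whole numbers that kept the ratios between libraries were taken, which can understate genes with few reads. A gene above 0 in fewer libraries was given none. Genes called had an adjusted p-value under 0.05. The scripts were first tested on simulated data. Named genes were Pax5, all genes called, the 10 with the smallest p-values in each direction at a mean over 5 TPM, the genes the study shows or lists, and up to 5 per gene list. Alternatives were other pseudocounts, filters, scalings, genotypes in the fit, and leaving out each library.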

Additional observations from a re-analysis of the deposited data

How the results depend on the processing

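No paired analysis was possible because the labels give the libraries no shared replicate numbers. Against 3 genes lower and 0 higher at an adjusted p-value under 0.05, the counts lower and higher were 23 and 5 with no filter, 7 and 1 with a filter on both libraries of a genotype, 7 and 2 under median-ratio or quantile scaling, 22 and 7 without a trend, and 28 and 7 with limma-voom. A pseudocount of 0.1 gave 2 lower, Enpep no longer among them, and 1 higher. A fit of the Pax5+/+ and Pax5+/- libraries alone called 0 lower, and one without the Pax5-/- libraries called 9 lower. By the study's thresholds of fold and level, the number lower, 3 in the report, was 5 under that filter and either scaling, 6 without a trend, 8 with limma-voom (which also called 1 higher) and 0 with the 2 genotypes alone. Leaving out either library of a genotype left 1 gene lower on both counts in every case (range 1 to 1), and that gene was Col5a3, so the calls of Hdac11 and Enpep rest on all 4 libraries. Col5a3 passed under 13 of 14 alternatives, Hdac11 under 9 and Enpep under 8. The share of called genes with a peak at the start site, 33.3% of 3, was 66.7% within 2.5 kb and 57.7% over the genes lower at an unadjusted p-value. With 1 library left out the log2 difference of Nedd9 ranged from -0.262 to 0.0158, of Sh3bp5 from -0.0730 to 0.142 and of Rapgef3 from -0.147 to 0.207, and the sign turned without the first Pax5+/+ library for all 3 and without the first Pax5+/- library for the latter pair. In these fits the lone library of a genotype was assumed to vary like the other groups. The causes were not tested. With 2 libraries a genotype, few changes under 2-fold were detectable, and most larger differences did not pass either. Of the members, 90 were over 2-fold lower and 83 over 2-fold higher, and 3 genes passed.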

Other observations

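Genes of growth lay slightly high in Pax5+/- pro-B cells as groups, with 0 past the adjusted limma test. Of 25 mitosis genes 24 had a log2 difference above 0 (median 0.32), and of 25 DNA replication genes all 25 had (median 0.23), against 55.9% above 0 and a median of 0.03 over all members, while 1 of each list, Mki67 and Pole, had an unadjusted p-value under 0.05. The second Pax5+/+ library was the lowest of the 4 in summed mitosis RNA, and both lists turned on which Pax5+/+ library was used. Without the second the medians were -0.0010 for mitosis and 0.07 for replication genes, with 0 of either list higher at that threshold. Without the first they were 0.63 and 0.44, with 18 and 13 of the 25 genes higher (background 6.49%). Sterol synthesis genes had a median of 0.19 over 20 members, with 2, Cyp51 among them, higher at an unadjusted p-value under 0.05, and in 14 of the 20 both Pax5+/- libraries lay above both Pax5+/+ libraries (background 21.1%). With 1 library left out their median ranged from 0.12 to 0.23, and 4 were higher without the first Pax5+/+ library (background 6.49%) and 1 without either Pax5+/- library. Glycolysis genes had a median of 0.22 over 18 members, with Slc2a3, a glucose transporter gene, higher at an unadjusted p-value under 0.05. Their median ranged from 0.13 to 0.26 with 1 library left out, with 4 higher without the first Pax5+/+ library (background 6.49%) and 0 without the second Pax5+/+ or the first Pax5+/- library.

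Immediate early genes, which respond within minutes to signals, had a median of -0.25 over 11 members (-0.05 without the second Pax5+/+ library, and -0.52 with 7 lower without the first), with Fos and Jund lower at an unadjusted p-value under 0.05. The 12 Bcl2 family genes had a median of -0.01, and Bmf, a gene of cell death, was lower at that threshold (0 lower without the first Pax5+/+ or the first Pax5+/- library). Among the other cell types, 2 T and NK cell markers (Cd4 and Klrd1), 2 erythroid markers, 3 plasma cell markers, 2 pre-B cell markers and 4 mature B cell markers were members, with medians of -0.85, -0.41, 0.15, 0.21 and 0.40. With 1 library left out these ranged from -1.24 to -0.45, -0.69 to -0.13, -0.01 to 0.31, -0.19 to 0.60 and 0.39 to 0.70, and 1 of these genes had an unadjusted p-value under 0.05. The 5 sex-linked genes had a median of 0.06 (-0.20 to 0.27 with 1 library left out). Of the 366 small RNA genes among the members, 25 were lower and 23 higher at an unadjusted p-value under 0.05 (background 3.15% and 2.91%), in libraries selected for poly(A) RNA, and 21 and 22 of these had fewer than 10 reads in each of the 4 libraries.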
